A study of Homo sapiens with 26 samples.

Results

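The 9 genes described here are ligands, transcription factors, a kinase and inhibitors of the interferon pathway, measured by mRNA-seq in esophageal squamous cell carcinoma (ESCC) lines: the ligands IFNB1 and IFNL1, the kinase TYK2, the transcription factors STAT2, IRF9, IRF7 and IRF1, and the feedback inhibitors USP18 and SOCS1. They were chosen by symbol, and all 9 members were among the 26485 genes of each of the 5 deposited tables. The study depleted or overexpressed BRDT, a testis-specific bromodomain protein of the BET family, and depleted TP63, the squamous lineage transcription factor p63, in 3 established ESCC lines, giving 26 libraries in 11 groups. KYSE180 and TE6 express BRDT endogenously, and KYSE150 was described as lacking it.

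KYSE180 had 2 separate experiments: siBRDT (n = 3) against its own siCont libraries (n = 3), and siTP63 (n = 2) against other siCont libraries (n = 2). TE6 siBRDT (n = 2) and TE6 siTP63 (n = 2) shared 1 set of siCont libraries (n = 2), so their fold changes are not independent of each other. KYSE150 was given siTP63 (n = 2) or siCont (n = 2), and in another experiment a BRDT plasmid (BRDT-OE, n = 3) or the empty vector pCDNA5/TO (n = 3) by electroporation. Cells treated with siRNA were collected after 48 h. All siRNA groups, controls included, received lipid-transfected RNA duplexes, and no untransfected cells were measured. Which of the siRNAs against each gene was used for sequencing is not given in the sources used here. The change in the target and other effects of a duplex or plasmid cannot be told apart in this design.

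Interferons are secreted after cells sense foreign nucleic acid. IFN-β binds the receptor IFNAR1/IFNAR2 and IFN-λ1 the receptor IFNLR1/IL10RB, and both receptors signal through the Janus kinases TYK2 and JAK1. These phosphorylate STAT proteins, and STAT2 joins IRF9 in the complex ISGF3. ISGF3 binds the interferon-stimulated response element (ISRE) of many antiviral genes, whereas STAT dimers bind the gamma-activated site (GAS). IRF1 and IRF7 are themselves interferon-inducible, and IRF7 amplifies ligand transcription. USP18 blocks signalling at IFNAR2, and SOCS1 inhibits the Janus kinases.

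The upstream sequences of IRF1, IRF9 and STAT2, which were called up together in 3 comparisons below, are given here. That of IFNL1, the member ligand with more reads, is given as well. They show where the 2 elements named above occur by letter match. Each sequence holds the 250 bases before the RefSeq transcription start (GRCh38.p14), 5′ to 3′ on the gene's strand, with matches in capitals. The ISRE core was searched as GAAANNGAAA or TTTCNNTTTC and the palindromic GAS core as TTCNNNGAA.
IRF1 (chr5:132490774-132491023, minus strand): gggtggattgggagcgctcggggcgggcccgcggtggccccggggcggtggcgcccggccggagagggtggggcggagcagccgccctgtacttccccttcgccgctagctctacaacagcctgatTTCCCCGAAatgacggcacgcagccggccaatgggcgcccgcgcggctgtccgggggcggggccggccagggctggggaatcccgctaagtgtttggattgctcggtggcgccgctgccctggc
IRF9 (chr14:24161015-24161264, plus strand): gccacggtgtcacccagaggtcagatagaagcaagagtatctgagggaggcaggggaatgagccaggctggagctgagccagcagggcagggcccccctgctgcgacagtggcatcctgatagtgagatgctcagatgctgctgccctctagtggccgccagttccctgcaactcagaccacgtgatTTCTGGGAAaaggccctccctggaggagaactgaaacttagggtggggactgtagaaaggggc
STAT2 (chr12:56360108-56360357, minus strand): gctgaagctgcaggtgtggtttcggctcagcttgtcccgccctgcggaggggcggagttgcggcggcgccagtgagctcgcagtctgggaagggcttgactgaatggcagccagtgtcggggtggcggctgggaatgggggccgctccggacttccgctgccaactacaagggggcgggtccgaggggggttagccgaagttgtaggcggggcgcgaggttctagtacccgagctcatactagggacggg
IFNL1 (chr19:39296157-39296406, plus strand): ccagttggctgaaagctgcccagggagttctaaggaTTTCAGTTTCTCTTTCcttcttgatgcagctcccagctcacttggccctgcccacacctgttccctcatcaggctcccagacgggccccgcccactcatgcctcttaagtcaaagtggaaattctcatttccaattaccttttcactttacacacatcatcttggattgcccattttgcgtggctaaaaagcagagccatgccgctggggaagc

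IRF1 held 1 GAS core starting at position -124 from the transcription start and IRF9 held 1 at -63. STAT2 had neither motif in this window. IFNL1 held 2 ISRE cores, at -214 and -208, which overlap each other and lie on the TTTC strand. Of the members not printed, SOCS1 held an ISRE core at -113, IFNB1 a GAS core at -218, and TYK2 neither. RefSeq sequences were matched for 7 of the 9 members, not for IRF7 and USP18. Over all 35116 promoters of this length, 3.02% held an ISRE core and 6.57% a GAS core. A letter match is a description of the sequence and not evidence of binding.

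In hg38 with GENCODE release 44, STAT2 lies on chromosome 12 from 56341597 to 56360203, IRF9 on chromosome 14 from 24161234 to 24168043, IRF7 on chromosome 11 from 612553 to 615983 and IRF1 on chromosome 5 from 132440440 to 132508719. TYK2 lies on chromosome 19 from 10350533 to 10380608, USP18 on chromosome 22 from 18150118 to 18177397, SOCS1 on chromosome 16 from 11254417 to 11256204, IFNB1 on chromosome 9 from 21077104 to 21077942 and IFNL1 on chromosome 19 from 39296407 to 39298673. Values are gene totals over exons, with no information on transcript isoforms. SOCS1 lies entirely inside RMI2 on the opposite strand, and the counting strand is not given in the sources used here, so reads of these genes may not be separated. IRF1 overlaps the antisense gene IRF1-AS1 and IRF9 a same-strand readthrough gene, neither of which is a row of the tables. IFNL1 reads may be shared with the close paralogs IFNL2 and IFNL3, and USP18 reads with its near-identical copy USP41.

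Library depth ranged from 7582089 to 19372441 reads in genes, so 3 reads, the most that a count of 0 allows, correspond to 0.155 to 0.396 reads per 1000000 (RPM) in a library. The targeted genes followed the labels: the log2 fold change of BRDT was -2.75 in KYSE180 siBRDT, -2.23 in TE6 siBRDT and 10.60 in KYSE150 BRDT-OE. That of TP63 was -1.70 in KYSE180 siTP63, -4.45 in TE6 siTP63 and -2.34 in KYSE150 siTP63, where the adjusted p was 0.0818. TP63 was also lower after siBRDT, at -0.58 in KYSE180 and -1.15 in TE6. BRDT was not at 0 in KYSE150. It had 34.6 ± 37.2 normalised counts (SD, n = 2) in siCont, 5.32 ± 7.53 (n = 2) in siTP63 and 10.2 ± 5.07 (n = 3) with the empty vector. TE6 siBRDT replicate 1 stood apart, with 20995 genes detected against 16458 to 17569 in the other TE6 libraries, and KYSE180 siBRDT replicate 1 had 18972 against 17187 to 17778 in the other 5 libraries of its table. The summed squamous markers (KRT5, KRT14, KRT6A, KRT17, TP63, SOX2, PKP1, DSG3) ranged from 476 to 9365 RPM. Of the leukocyte markers, PTPRC reached at most 4 reads in any library, CD3E 10, CLEC4C 1 and LYZ 32, whereas CD68 reached 110.4 RPM. The 3 endothelial markers summed to at most 12.1 RPM and the 5 fibroblast markers to at most 109.8, mostly COL1A1.

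The ligands were close to undetected. IFNB1, which encodes IFN-β, had 8 reads in all 26 libraries together. These were 2 and 2 reads in the TE6 siBRDT libraries, 0 and 1 in TE6 siTP63, 1 and 1 in KYSE180 siTP63, and 1, 0 and 0 in KYSE180 siBRDT. No control library of any line had an IFNB1 read, and neither did any KYSE150 library. The 4 reads of TE6 siBRDT gave 0.187 RPM (95% exact Poisson interval 0.0511 to 0.480), an interval that holds the 0.116 RPM to which 3 reads over the empty TE6 controls correspond, so a difference was not detectable at this depth. IFNB1 passed the filter on low values in none of the 6 comparisons.

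IFNL1, which encodes IFN-λ1, had 56 reads in 16 of the 26 libraries, and most of them were in TE6. There were 17 and 10 reads in TE6 siBRDT, 8 and 1 in TE6 siTP63, and 2 and 3 in TE6 siCont. Both siBRDT libraries were above both controls, while the siTP63 libraries lay on either side of them. Summed over the group, TE6 siBRDT had 1.27 RPM (95% exact Poisson interval 0.834 to 1.84) and TE6 siCont 0.193 (0.0626 to 0.450). Their ratio was 6.56, with a 95% interval of 2.49 to 21.8 from the exact conditional binomial. For TE6 siTP63 the ratio was 1.87 (0.564 to 7.12). These intervals cover counting error only, and not the spread between cultures. Without siBRDT replicate 1, the library with the most genes detected, the siBRDT ratio was 5.04, with an interval of 1.57 to 18.8.

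Outside TE6, IFNL1 had 3, 1 and 1 reads in KYSE180 siBRDT against 0, 1 and 0 in its controls, a ratio of 5.69 with an interval of 0.637 to 269. It had no read in either group of the KYSE180 siTP63 experiment. KYSE150 had 1 and 0 reads after siTP63 against none in siCont, and 1, 2 and 0 reads in BRDT-OE against 2, 1 and 2 with the empty vector. IFNL1 was also under the filter in every comparison. When the filter was dropped, limma called IFNL1 in TE6 siBRDT, with a log2 fold change of 2.33 and an adjusted p of 0.0248, and in none of the 4 other comparisons that could be fitted.

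**Figure D1:**
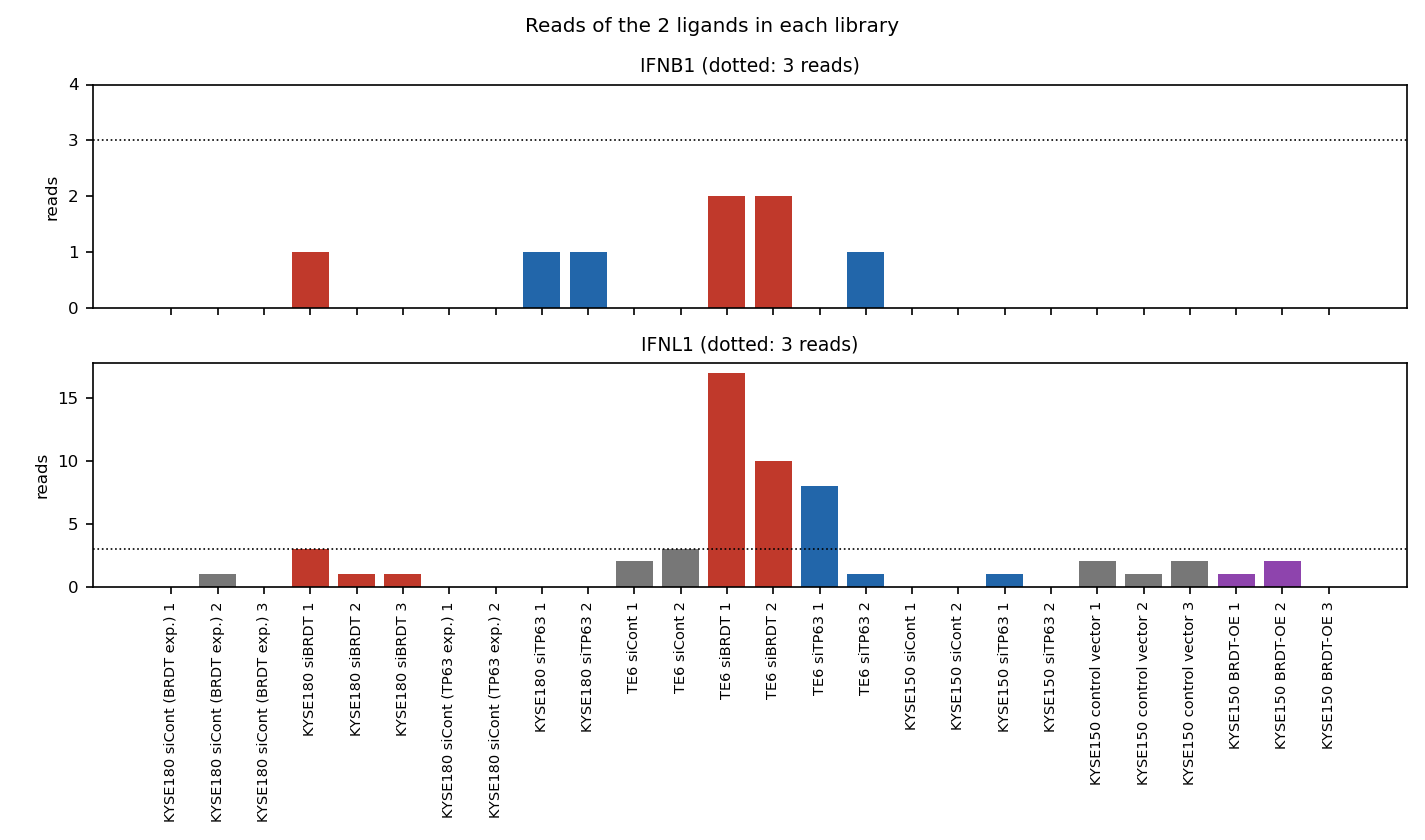
Reads of IFNB1 (top) and IFNL1 (bottom) in each of the 26 libraries (horizontal axis, grouped by experiment), with bars in grey for controls, red for siBRDT, blue for siTP63 and purple for BRDT-OE, and a dotted line at 3 reads. IFNB1 never passed 2 reads, and IFNL1 passed 3 reads in 3 TE6 libraries, with 17, 10 and 8.

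Of 20 other interferon ligand genes in the tables, 13 had at least 1 read in some library. IFNE, an epithelial type I interferon, was the most abundant, with 332 reads in 20 libraries, and had none in TE6. In KYSE180 siTP63 it had 60 and 56 reads against 17 and 17 in siCont, and it rose by 1.03 ± 0.32 (SE) on the log2 scale (limma adjusted p = 0.00733). That call was lost without siTP63 replicate 1 (adjusted p = 0.0868) or siTP63 replicate 2 (0.0787). IFNE was under the filter in both TE6 comparisons and in KYSE150 BRDT-OE, and was not called in KYSE180 siBRDT (log2 fold change -0.68), except without siBRDT replicate 3 (-0.88, adjusted p = 0.0354), or in KYSE150 siTP63 (0.07). IFNL2 had 11 reads in all, IFNL3 8, IFNL4 7, IFNA1 6, IFNA14 4, IFNK 3, IFNA2, IFNA17 and IFNG 2 each, and IFNA6, IFNA21 and IFNW1 1 each. TE6 siBRDT replicate 1, the library with the most genes detected, had reads of 9 ligand genes, and TE6 siBRDT replicate 2 had reads of 3 (IFNL1 10, IFNL3 4, IFNB1 2), where the other TE6 libraries had reads of 2 or 3. The part of the number of genes detected in these reads was not tested.

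Levels in control cells are given as RPKM (reads scaled to library depth and to kilobases of exon, computed here from recovered reads and the union of GENCODE exons), and they varied between the 2 sets of KYSE180 controls as well as between lines. In the controls of the KYSE180 BRDT experiment, IRF9 was highest at 23.4 ± 0.551 (SD, n = 3), followed by TYK2 at 13.05 ± 0.415 and STAT2 at 10.0 ± 0.233. USP18 at 5.10 ± 0.475 and SOCS1 at 4.96 ± 0.328 did not differ beyond their spread, IRF1 had 0.736 ± 0.0873 and IRF7 0.202 ± 0.0425. In the controls of the KYSE180 TP63 experiment (n = 2) the order was another, with TYK2 at 7.70 ± 0.657, IRF9 at 5.44 ± 2.21 and STAT2 at 2.24 ± 0.387, each lower than in the BRDT experiment. IRF7 was at 9.56 ± 1.79 RPKM (n = 2) in TE6 siCont, and its highest control level elsewhere was 0.518 ± 0.325 (n = 3) in KYSE150 with the empty vector. In TE6 siCont, IRF7, IRF9 (9.20 ± 1.41) and TYK2 (9.89 ± 0.532) did not differ beyond their spread. IRF1 was higher in KYSE150, with 2.59 ± 0.135 in siCont and 4.30 ± 0.453 with the empty vector, than in TE6 siCont with 0.941 ± 0.103. The annotated exons of IRF1 add up to 12265 bases, because long transcript models are included, which lowers its RPKM. Lines were sequenced and normalised in separate tables, so line and experiment cannot be told apart in these levels, and no test was made.

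In TE6 siBRDT the 4 member transcription factors were called up, whereas TYK2, USP18 and SOCS1 were not called. In bulk RNA, fewer cells of a type and less RNA per cell cannot be told apart, and this holds for every result here. The labels do not say that replicates were separate cultures, so p-values measure the spread between these libraries, which may be technical. A gene was called when its limma p, adjusted by the Benjamini-Hochberg method over all genes tested, was under 0.05 and its mean log2(normalised count + 1) differed by 0.5 or more between the groups. By this rule 4 of the 7 members tested were called up and 0 down, against 15.6% up and 18.1% down over the 13333 genes tested.

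IRF7 had 1471 and 1207 normalised counts in TE6 siBRDT and 320.0 and 244 in siCont. Both siBRDT libraries exceeded both controls, and the log2 fold change was 2.25 ± 0.15 (SE; adjusted p = 8.04e-07). IRF9, the DNA-binding subunit of ISGF3, had 2075 and 2436 against 747 and 597, a log2 fold change of 1.75 ± 0.12 (adjusted p = 1.16e-06). STAT2, its partner with the transactivation domain, had 1146 and 1279 against 793 and 796, and rose by 0.61 ± 0.11 (adjusted p = 0.000564). IRF1 had 246 and 344 against 141 and 119.7, and rose by 1.16 ± 0.17 (adjusted p = 0.000208). For each of these 4 genes the groups did not overlap.

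The kinase and the feedback genes had overlapping groups in TE6 siBRDT. TYK2 had 729 and 1005 normalised counts against 989.9 and 911, with an adjusted p of 0.401. USP18 had 163 and 259 against 198 and 174, with siBRDT replicate 1 below and replicate 2 above both controls (adjusted p = 0.561). SOCS1 had 39.9 and 39.4 against 44.8 and 30.1 (adjusted p = 0.793). Without TE6 siBRDT replicate 1, the library that stood apart, the same 4 members were called, with log2 fold changes of 0.69 for STAT2, 1.87 for IRF9, 2.11 for IRF7 and 1.40 for IRF1, and USP18 was at 0.48 (adjusted p = 0.00642), just under the fold limit.

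In KYSE180 depleted of BRDT, none of the 6 members tested was called by limma, edgeR or DESeq2, against 14.5% of genes up and 15.8% down over the 13589 tested. At an unadjusted p under 0.05 there were 5. IRF7 was under the filter, with 7, 6 and 12 reads after siBRDT against 5, 6 and 7. By the adjusted p alone, 5 of the 6 differed, where 58.4% of all genes did.

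Of those 5, TYK2 had 899, 863 and 945 normalised counts against 1283, 1228 and 1193, and a log2 fold change of -0.45 ± 0.07 (adjusted p = 3.59e-05). SOCS1 had 72.4, 59.0 and 80.1 against 94.3, 96.0 and 104.9, at -0.49 ± 0.15 (adjusted p = 0.0101). STAT2 had 799, 931 and 949.7 against 1036, 1019.9 and 1051, at -0.22 ± 0.07 (adjusted p = 0.0212). These 3 were below their controls in every library. IRF9 had 2093, 1935 and 1961 against 1733, 1678 and 1638, at 0.25 ± 0.06 (adjusted p = 0.00316), and IRF1 had 123, 144 and 122 against 90.7, 114 and 96.1, at 0.37 ± 0.13 (adjusted p = 0.0240). IRF9 and IRF1 were above their controls in every library. USP18 was at 0.18 ± 0.10 (adjusted p = 0.112). SOCS1 lay so near the limit that it was called in 4 of 6 fits that each left out 1 library, among them the fit without siBRDT replicate 1 (-0.51, adjusted p = 0.0130), in which STAT2 had an adjusted p of 0.102.

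The response to siBRDT was compared between the lines in 1 fit over both tables, as the difference between their log2 fold changes. STAT2, IRF9 and IRF1 differed, 3 of the 6 members that passed the filter in both lines, against 37.2% of the 13761 genes tested by the adjusted p alone. The TE6 log2 fold change exceeded that of KYSE180 by 0.82 ± 0.13 for STAT2 (adjusted p = 0.000325), 1.504 ± 0.14 for IRF9 (6.88e-06) and 0.79 ± 0.24 for IRF1 (0.0166). IRF7 passed the filter in TE6 and not in KYSE180, and was not compared between them. The IRF1 difference lost the call without TE6 siCont replicate 2 (adjusted p = 0.0874) and without TE6 siBRDT replicate 2 (0.0664). For TYK2, USP18 and SOCS1 the differences were 0.30 ± 0.16, -0.04 ± 0.23 and 0.59 ± 0.29, none past the threshold. Without TE6 siBRDT replicate 1 the same 3 members differed and TYK2 in addition, by 0.53 (adjusted p = 0.00249), and without TE6 siCont replicate 1 SOCS1 in addition, by 0.87 (adjusted p = 0.0419).

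In KYSE180 siTP63, STAT2, IRF9, IRF1 and USP18 were called up, 4 of the 6 members tested. Over the 13924 genes tested, 23.6% were called up and 25.7% down. IRF9 had 4232 and 4209.8 normalised counts after siTP63 and 434 and 751 in siCont, a log2 fold change of 2.88 ± 0.18 (adjusted p = 1.66e-12) and the largest of any member in any comparison. STAT2 had 1084 and 1226 against 316 and 387, and rose by 1.72 ± 0.15 (adjusted p = 7.84e-10). IRF1 had 248 and 218 against 84.9 and 103, and rose by 1.31 ± 0.19 (adjusted p = 1.88e-06).

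USP18, the ISG15-specific protease that restrains IFNAR2, had 282 and 272 normalised counts against 178 and 123, and rose by 0.90 ± 0.18 (adjusted p = 0.000181). For these 4 genes both treated libraries were above both controls. TYK2 had 1006 and 1011 against 1203 and 1021 (-0.14 ± 0.14, adjusted p = 0.423), and SOCS1 62.9 and 66.7 against 64.5 and 82.1 (-0.17 ± 0.23, adjusted p = 0.561); the sign of both turned under upper-quartile rescaling, which moved the median of all genes by 0.19. IRF7 stayed under the filter with 9 and 2 reads against 0 and 3. After siTP63, STAT2 was at 10.6 ± 1.29 RPKM (SD, n = 2) and USP18 at 5.75 ± 0.0650. These are near the 10.0 and 5.10 in siCont of the KYSE180 BRDT experiment. IRF9 at 55.4 ± 1.80 and IRF1 at 1.61 ± 0.0886 lay above the 23.4 and 0.736 there. The 2 experiments were not compared by a test.

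In TE6 siTP63, 5 of 7 members were called up: STAT2, IRF9, IRF7, IRF1 and USP18. The siCont libraries are those that siBRDT was compared with. Over all 13333 genes tested, 18.3% were called up and 20.6% down. IRF7 had 1181 and 1330.2 normalised counts against 320.0 and 244 (2.16 ± 0.15, adjusted p = 2.80e-07), and IRF9 had 2637 and 2623 against 747 and 597 (1.98 ± 0.12, adjusted p = 1.63e-07). STAT2 had 1449.7 and 1558 against 793 and 796 (0.92 ± 0.11, adjusted p = 1.90e-05), and IRF1 had 295 and 319.6 against 141 and 119.7 (1.235 ± 0.17, adjusted p = 9.73e-05). In each case the groups were separate.

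USP18 had 293 and 296 normalised counts in TE6 siTP63 against 198 and 174 in siCont, and rose by 0.66 ± 0.19 (adjusted p = 0.0124). That call was lost without siCont replicate 2 (adjusted p = 0.125), without siTP63 replicate 1 (0.0779) and without siTP63 replicate 2 (0.0818). TYK2 had 936 and 953 (adjusted p = 0.966) and SOCS1 37.2 and 57.7 (adjusted p = 0.386), both overlapping their controls. Set directly against siTP63 in the same line, siBRDT gave lower STAT2 (difference -0.31 ± 0.11, adjusted p = 0.0327), 1 of 7 members, where 39.2% of the genes tested differed. This call was lost in 5 of the 6 fits that left out a library, with adjusted p from 0.0513 to 0.248, the exception being the fit without siBRDT replicate 2, in which 4 members (STAT2, IRF9, TYK2 and USP18) differed. USP18 differed by -0.52 ± 0.19 (adjusted p = 0.0502) and IRF9 by -0.23 ± 0.12 (adjusted p = 0.164), while IRF7, IRF1, TYK2 and SOCS1 differed by 0.09, -0.08, -0.14 and -0.22.

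**Figure D2:**
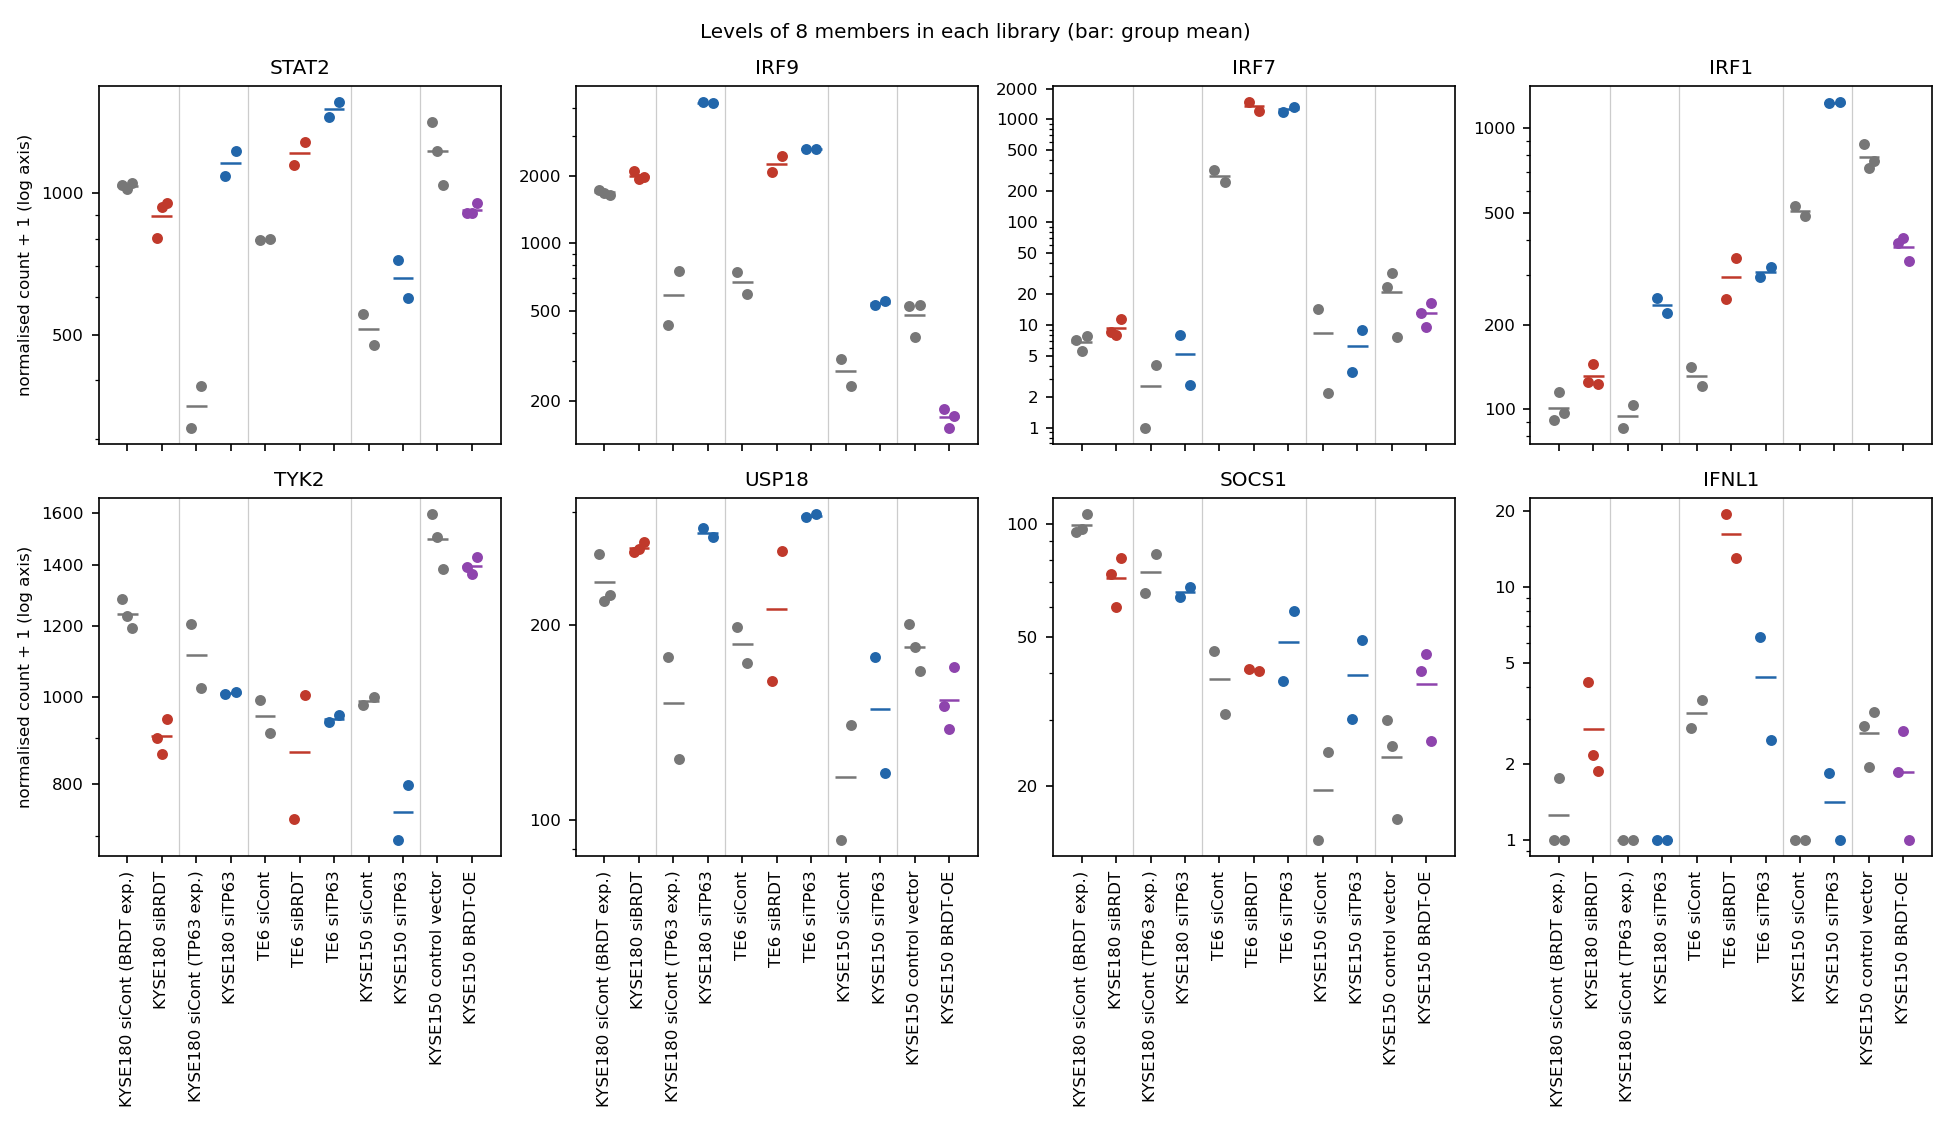
Normalised count + 1 (vertical log axis, a different range in each panel) of 8 members in every library, by group, with grey points for controls, red for siBRDT, blue for siTP63 and purple for BRDT-OE and a bar at each group mean; thin vertical lines separate the 5 tables, whose levels were normalised separately. IRF9 lay at 434 and 751 in the KYSE180 controls of the TP63 experiment and at 4232 and 4209.8 after siTP63, and IRF7 was at 244 or more in every TE6 library and at 31.1 or less in all others.

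KYSE150 depleted of p63 showed no call by limma in the unpaired fit, among the 6 members tested or among all 12335 genes (0%), although 2194 genes and 2 members had an unadjusted p under 0.05. IRF1 had 1225 and 1236 normalised counts after siTP63 against 526 and 488, with a log2 fold change of 1.28 ± 0.18 (adjusted p = 0.111). IRF9 had 532 and 556 against 307 and 233, at 1.02 ± 0.23 (adjusted p = 0.132). In both genes the groups were separate. DESeq2 on the recovered reads called these 2 members (adjusted p = 0.00129 for IRF1 and 0.0463 for IRF9) and 462 genes in all, and edgeR called 0 of either. Leaving out siTP63 replicate 1 or replicate 2, limma called IRF1.

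SOCS1 had 29.1 and 47.9 against 13.4 and 23.6 normalised counts in KYSE150, at 1.03 ± 0.46 (adjusted p = 0.315), resting on 9 to 36 reads per library. STAT2 had 718 and 598 against 551 and 475 (0.36 ± 0.21, adjusted p = 0.428). USP18 had 178 and 117 against 92.1 and 139, groups that overlapped (0.35 ± 0.34, adjusted p = 0.641), and TYK2 had 692 and 796 against 977 and 999 (-0.41 ± 0.19, adjusted p = 0.325). Replicates of this experiment differed most: their counts gave a chi-square per gene of 35.4 in siCont and 64.1 in siTP63, where the other replicate pairs gave 1.84 to 24.98.

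Between lines, the siTP63 response of STAT2 and IRF9 was smaller in TE6 than in KYSE180, by -0.80 ± 0.16 (adjusted p = 0.000972) and -0.91 ± 0.26 (adjusted p = 0.00993), 2 of the 6 members that passed the filter in both lines, against 55.5% of the genes tested. The IRF9 difference lost the call without TE6 siCont replicate 1 (adjusted p = 0.0562), and IRF1 differed by -0.07 ± 0.23 (adjusted p = 0.799). Without the KYSE180 siCont replicate 1 of that experiment USP18 differed as well, by -0.4997 (adjusted p = 0.0475). The STAT2 log2 fold change was larger in KYSE180 than in KYSE150, by 1.36 ± 0.25 (adjusted p = 0.0443), 1 of 6 members against 2.05%, and IRF9 by 1.86 ± 0.36 (adjusted p = 0.0513). That STAT2 call was lost in 7 of the 8 fits that each left out 1 library, with adjusted p up to 0.265, and stood without KYSE150 siTP63 replicate 1, where IRF9 also differed. Between TE6 and KYSE150, 0 of 6 members differed by limma (3 at an unadjusted p under 0.05, 0 by edgeR and 1, IRF9, by DESeq2), against 2.37% of the genes tested. The smallest adjusted p was that of IRF9, 0.0854 for a difference of 0.96 ± 0.24, and IRF9 was called without KYSE150 siTP63 replicate 2.

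In KYSE150 BRDT-OE, IRF9 and IRF1 were called down, 2 of 7 members tested, and 0 were called up. Over the 12765 genes tested, 10.5% were up and 16% down. IRF9 had 183, 151 and 170.1 normalised counts in BRDT-OE against 529, 384 and 534 with the empty vector. All 3 treated libraries were under all 3 controls, and the log2 fold change was -1.502 ± 0.14 (adjusted p = 2.08e-05). IRF1 had 390.3, 405 and 335 against 875, 719.7 and 765, at -1.06 ± 0.10 (adjusted p = 2.84e-05), also without overlap.

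STAT2 had 906, 907 and 949 normalised counts against 1414, 1227 and 1039, lower in every library but under the fold limit (-0.40 ± 0.10, adjusted p = 0.00841). It was called at -0.50 under upper-quartile rescaling (adjusted p = 0.00215). IRF7 passed the filter here at low levels, with 12.04, 8.46 and 15.5 against 22.6, 31.1 and 6.58 (-0.50 ± 0.50, adjusted p = 0.422). Without the empty-vector replicate 3, which had the lowest IRF7 and STAT2 of its group, STAT2 at -0.52 (adjusted p = 1.04e-05) and IRF7 at -1.12 (adjusted p = 0.0134) were called as well. USP18 had 149, 137 and 172 against 199.7, 184 and 169 (-0.27 ± 0.13, adjusted p = 0.0903), TYK2 1394, 1368 and 1429 against 1595, 1504 and 1387 (-0.10 ± 0.07, adjusted p = 0.299), and SOCS1 39.5, 43.98 and 25.3 against 28.9, 24.5 and 15.3 (0.65 ± 0.30, adjusted p = 0.0908). Those 3 genes had overlapping groups.

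**Figure D3:**
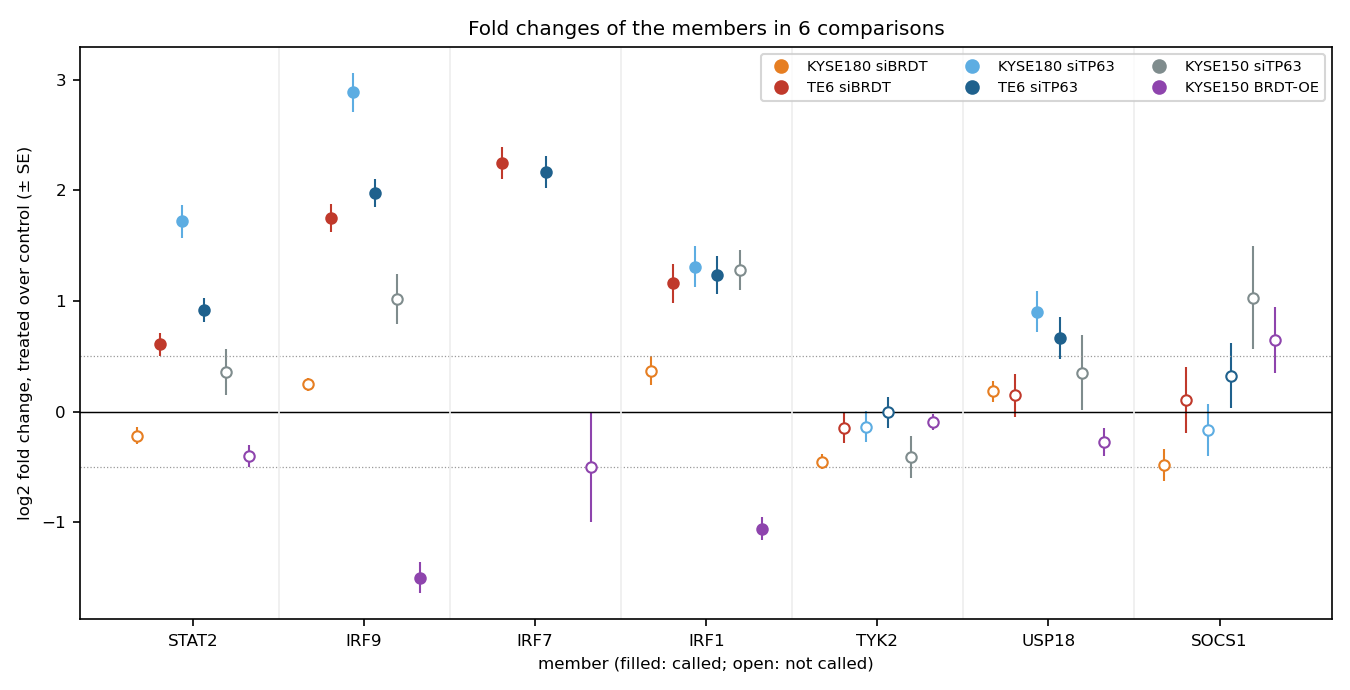
Log2 fold change of treated over control (vertical axis, ± SE from limma) of the 7 members that could be tested, for 6 comparisons in different colours, with filled points for called values, open points for values not called and dotted lines at the limit of 0.5. IRF9 and IRF1 were called up in 3 comparisons each and down in KYSE150 BRDT-OE, at -1.502 and -1.06, and no TYK2 or SOCS1 value was called.

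The rest of the pathway was described with lists of genes by role, each set beside all genes tested, whose median log2 fold change lay between -0.04 and 0.02 in every comparison. The interferon-stimulated effectors are 27 antiviral and ISGylation genes such as ISG15, MX1 and OAS1, mostly known ISGF3 targets. In TE6 siBRDT 22 of the 24 tested were called up and 0 down, with a median log2 fold change of 1.67. Over all genes, 15.6% were up there and 18.3% in TE6 siTP63. ISG15, a ubiquitin-like modifier, rose by 4.43 ± 0.18 and IFI6, an antiviral membrane protein of the endoplasmic reticulum, by 3.67 ± 0.17. Without siBRDT replicate 1, 19 of 22 were called up, with a median of 1.59. In TE6 siTP63 15 of 24 were called up and 0 down (median 1.32; 1 down without siTP63 replicate 2), led by IFI6 at 3.90 ± 0.17 and TRIM22, an antiviral ubiquitin ligase, at 3.87 ± 0.40, the latter from as few as 5 reads in a control library.

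In KYSE180 siTP63 25 of 26 effectors tested were called up and 0 down, with a median of 2.51. XAF1, a pro-apoptotic interferon-inducible gene, was at 6.14 ± 0.30, from 2 reads in 1 control library. Its mean normalised count was 5.68 in siCont, under the limit of the filter on low values, and 435 in siTP63. XAF1 was therefore tested only because its treated libraries were high. The same holds for TRIM22 in TE6 siTP63, with means of 4.35 in siCont and 77.0 in siTP63. Both are among the genes counted as up. IFI27, a mitochondrial interferon-inducible protein, rose by 5.28 ± 0.19 in KYSE180 siTP63. In KYSE180 siBRDT 4 of 25 were called up and 3 down (median -0.09), among them IFIT2, which binds viral RNA, at 0.86 ± 0.12 and TRIM22 at -1.15 ± 0.36, a call lost without siCont replicate 1 (adjusted p = 0.0525). TRIM22 had means of 19.8 in siCont and 9.11 in siBRDT there. The latter is under the limit, so the gene passed the filter only through its controls. In KYSE150 siTP63 0 of 15 were called, with a median of 0.97 and 6 at an unadjusted p under 0.05, and edgeR and DESeq2 also called 0. Without KYSE150 siCont replicate 2, 3 of 15 were called up, and without siTP63 replicate 1, 1 of 14. In KYSE150 BRDT-OE 0 of 19 were called up and 14 down (median -1.17), led by IFIT1 at -3.47 ± 0.18 and IFIT2 at -3.17 ± 0.16. Over all genes, 10.5% were up and 16% down there.

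The receptor subunits and the other Janus kinases, 8 genes in all, are named here where their change led a comparison. After siBRDT, 0 were called up and 3 of 8 down in KYSE180, led by IFNAR2 at -0.84 ± 0.15 and JAK1 at -0.66 ± 0.07, and 0 up and 2 of 8 down in TE6, IFNGR1 at -1.203 ± 0.13 and JAK1 at -1.12 ± 0.14. After siTP63, KYSE180 had 2 up, JAK2 at 1.45 ± 0.32 and JAK1 at 0.68 ± 0.14, and 1 down, IFNAR2 at -0.60 ± 0.21. TE6 had 1 up, IL10RB at 0.57 ± 0.13, and 1 down, JAK2 at -0.98 ± 0.27. In KYSE150, limma, edgeR and DESeq2 called 0 of 7 after siTP63 (3 at an unadjusted p under 0.05), and BRDT-OE had IFNAR1 up at 0.55 ± 0.09 and IL10RB down at -0.72 ± 0.13. The 2 of 8 up and 1 of 8 down in KYSE180 siTP63 are near and under the shares over all genes, 23.6% and 25.7%. In TE6 siTP63, 1 of 8 in each direction is under 18.3% and 20.6%. After siBRDT, 15.8% of all genes were down in KYSE180 and 18.1% in TE6, and BRDT-OE had 10.5% up and 16% down. In KYSE180 siTP63, edgeR and upper-quartile rescaling each gave 4 up, and the IFNAR2 call was lost under that rescaling (adjusted p = 0.101), with DESeq2 (0.0692) and without siTP63 replicate 1 (0.164). The IFNAR1 call in BRDT-OE was also lost under the rescaling, at 0.45. In TE6 siTP63, JAK2 lost its call without siCont replicate 2 (adjusted p = 0.1102) or siTP63 replicate 1 (0.0675) and IL10RB without siCont replicate 2 (0.0509), and without siTP63 replicate 2 there were 2 down.

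IFNLR1, the receptor chain specific to IFN-λ, was called by limma in none of the 4 comparisons of KYSE180 and TE6 and was under the filter in both KYSE150 tables. Its value in KYSE180 siTP63 was 0.46 ± 0.20 (adjusted p = 0.0544), and it was called there by edgeR (0.52, adjusted p = 0.0282), under upper-quartile rescaling (0.65, 0.00797) and without siCont replicate 1 (0.64, 0.00743).

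Of the 12 other STAT and IRF genes, 10 were tested in KYSE180, 9 in TE6 and 8 in KYSE150. In KYSE180 siTP63 6 were called up and 1 down, where 23.6% of all genes were up and 25.7% down. IRF3, which activates IFNB1 transcription, was at -0.98 ± 0.16 there. IRF3 rose in TE6, by 1.01 ± 0.11 after siBRDT and 0.84 ± 0.11 after siTP63. TE6 siBRDT had 2 up and 1 down, IRF2, a repressor of IRF1 targets, at -1.198 ± 0.15, and TE6 siTP63 had 1 up and 1 down. The shares over all genes were 15.6% up and 18.1% down in TE6 siBRDT and 18.3% and 20.6% in TE6 siTP63. They were 14.5% and 15.8% in KYSE180 siBRDT and 10.5% and 16% in BRDT-OE. Without TE6 siBRDT replicate 2, 4 were down in TE6 siBRDT, and without TE6 siBRDT replicate 1, 2 were up in TE6 siTP63. KYSE180 siBRDT had 0 up and 3 down, led by STAT5A at -1.001 ± 0.13 and IRF2 at -0.56 ± 0.09, the latter just under the fold limit without siCont replicate 3. KYSE150 BRDT-OE had 0 up and 3 down, led by IRF5 at -1.27 ± 0.15, and in KYSE150 siTP63 limma and edgeR called 0 of 8 and DESeq2 1, with 1 at an unadjusted p under 0.05.

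The 15 other feedback genes, the remaining SOCS family members, the PIAS proteins and 4 phosphatases, were all tested. They gave 1 up and 0 down in KYSE180 siBRDT (CISH, 0.52 ± 0.19), 0 up and 3 down in TE6 siBRDT (PTPN11 at -0.76 ± 0.13 and PIAS1 at -0.71 ± 0.16 first), and 5 up and 2 down in KYSE180 siTP63, with SOCS6 at 1.27 ± 0.20 and SOCS2 at -1.51 ± 0.17. TE6 siTP63 had 1 up and 7 down, led by the phosphatase gene PTPN11 at -1.91 ± 0.13 and SOCS3 at -1.199 ± 0.20. KYSE150 BRDT-OE had 0 up and 3 down, with SOCS3 at -1.204 ± 0.09 and CISH at -1.16 ± 0.15. KYSE150 siTP63 had 0 called by limma, edgeR or DESeq2 and 1 at an unadjusted p under 0.05. Over all genes tested, the shares called up and down were 14.5% and 15.8% in KYSE180 siBRDT and 15.6% and 18.1% in TE6 siBRDT. They were 23.6% and 25.7% in KYSE180 siTP63, 18.3% and 20.6% in TE6 siTP63, and 10.5% and 16% in BRDT-OE. The 3 of 15 down in TE6 siBRDT is near that share, and the 2 of 15 down in KYSE180 siTP63 is under it. In TE6 siTP63, 4 were down without siCont replicate 2, siTP63 replicate 1 or siTP63 replicate 2, 0 were up without siCont replicate 1 or siTP63 replicate 1, and DESeq2 gave 5 down. In TE6 siBRDT, 5 were down without siBRDT replicate 1 and 1 was up without siCont replicate 1, and PIAS1 lost its call without siCont replicate 2 (adjusted p = 0.0722) or siBRDT replicate 1 (-0.48). The CISH call was lost with DESeq2 (adjusted p = 0.0972) and in 4 of the 6 fits without 1 library, those without siCont replicates 1 and 3 and siBRDT replicates 1 and 3.

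The 13 genes of antigen presentation, guanylate-binding proteins and chemokines had 8 tested in KYSE180 and TE6. They gave 1 up and 1 down in each siBRDT comparison, WARS at 0.66 ± 0.06 in KYSE180 and 1.14 ± 0.10 in TE6 against GBP2 at -0.65 ± 0.18 and -0.78 ± 0.20. The 1 of 8 in each direction is under the shares over all genes, 14.5% up and 15.8% down in KYSE180 and 15.6% and 18.1% in TE6. The TE6 call of GBP2 was lost without siCont replicate 1 (adjusted p = 0.0987), and without siBRDT replicate 2 there were 2 up. In KYSE180 siTP63 4 were up and 0 down, led by GBP3 at 1.91 ± 0.30 and CD274, which encodes PD-L1, at 1.76 ± 0.33. In TE6 siTP63 3 were up and 1 down, with PSMB9, an immunoproteasome subunit, at 1.195 ± 0.18, and the call down was lost with DESeq2 and without siCont replicate 1 or siTP63 replicate 2. In KYSE150 BRDT-OE, where 7 were tested, 3 were down, PSMB9 first at -2.10 ± 0.20, and 1 up, CD274 at 1.80 ± 0.10. Over all genes the shares up and down were 23.6% and 25.7% in KYSE180 siTP63, 18.3% and 20.6% in TE6 siTP63, and 10.5% and 16% in BRDT-OE. In KYSE150 siTP63 limma and edgeR called 0 of 6 and DESeq2 1, and 5 had an unadjusted p under 0.05. Without siCont replicate 1 limma called 1 up there, and without siTP63 replicate 1, 2 up.

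Of the 13 sensors and ligand-inducing factors, the RNA sensors DDX58 (RIG-I) and IFIH1 (MDA5) rose in TE6 siBRDT, by 1.83 ± 0.12 and 1.59 ± 0.13, among 3 genes up and 4 down. TE6 siTP63 had 3 up and 2 down, with DDX58 at 1.94 ± 0.12 and DHX58 at 1.52 ± 0.13. KYSE180 siTP63 had 4 up and 1 down, with the endosomal RNA receptor TLR3 at 2.19 ± 0.34 and DHX58 at 2.01 ± 0.16. KYSE180 siBRDT had 1 up, MB21D1 (cGAS) at 0.56 ± 0.13, and 1 down, DHX58 at -0.66 ± 0.10. It had 2 up without siBRDT replicate 1 or siCont replicate 2, 0 up without siCont replicate 1, where MB21D1 was at 0.43, and 2 down without siBRDT replicate 3. KYSE150 BRDT-OE had 1 up and 4 down, with DHX58 at -2.05 ± 0.48 and IFIH1 at -1.40 ± 0.12, and in KYSE150 siTP63 limma and edgeR called 0 of 12 and DESeq2 2, with 3 at an unadjusted p under 0.05. Limma called 1 of them up without siCont replicate 2 or siTP63 replicate 1. In BRDT-OE, 0 were up under upper-quartile rescaling, without empty-vector replicate 3 or without BRDT-OE replicate 2, and 2 were down without empty-vector replicate 1. The mean normalised count of DHX58 was 23.9 with the empty vector and 4.44 in BRDT-OE, the latter under the limit of the filter. DHX58 was therefore tested there only because its controls were high, and it is among the 4 called down. The sensors' counts after siTP63 lay near or under the shares over all genes, 23.6% up and 25.7% down in KYSE180 and 18.3% and 20.6% in TE6. After siBRDT these shares were 14.5% and 15.8% in KYSE180 and 15.6% and 18.1% in TE6, and in BRDT-OE 10.5% and 16%.

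**Figure D4:**
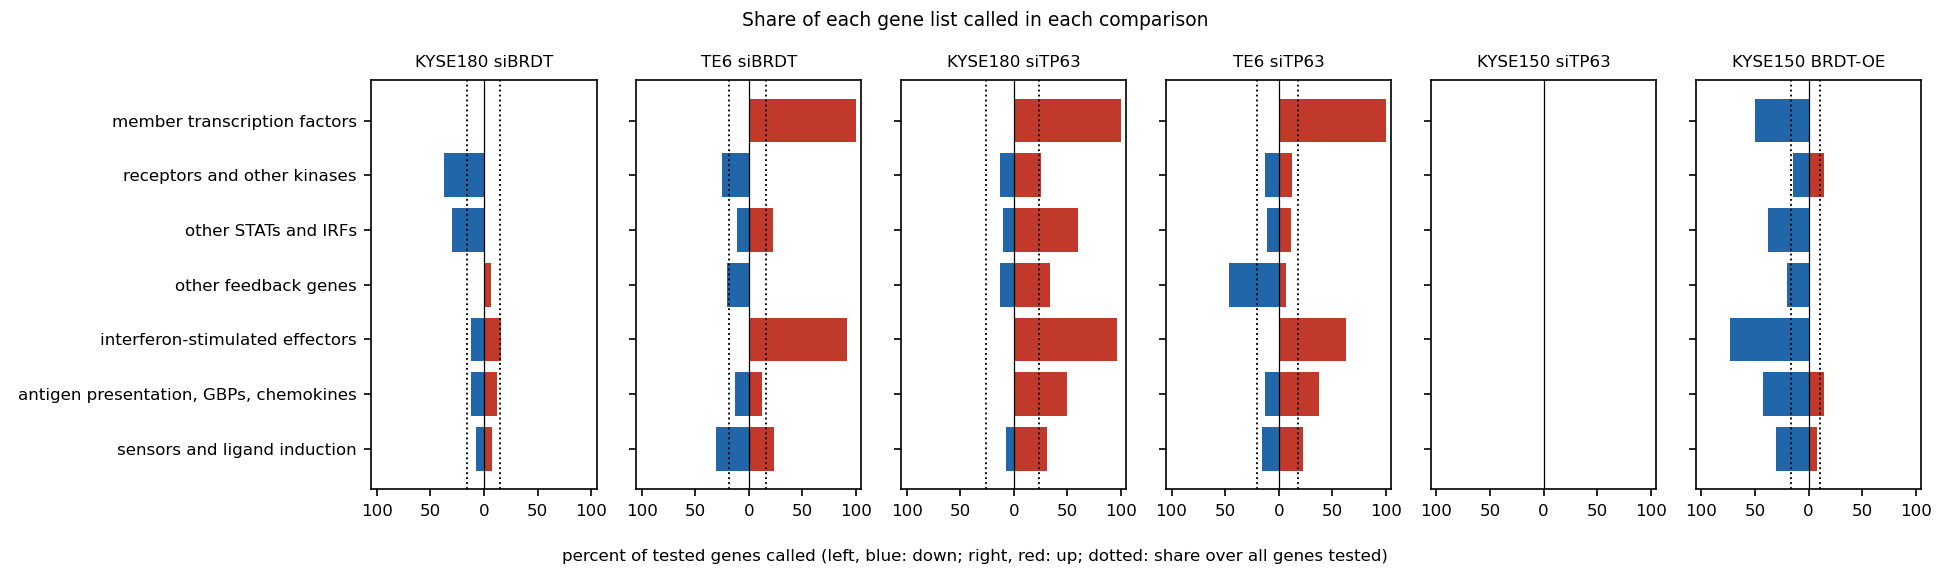
Percent of the tested genes of each list that were called up (red, to the right) or down (blue, to the left) in each of the 6 comparisons, with dotted lines at the shares over all genes tested. The effector list had 22 of 24 up in TE6 siBRDT, 25 of 26 up in KYSE180 siTP63, 15 of 24 up in TE6 siTP63 and 14 of 19 down in KYSE150 BRDT-OE, and the KYSE150 siTP63 panel is empty because no gene was called.

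Markers of the squamous state changed as well, also in KYSE180 siBRDT, where none of the 6 members tested was called. Of the 8 squamous markers, 7 were called down in KYSE180 siBRDT, 5 in TE6 siBRDT, 7 in KYSE180 siTP63 and 8 in TE6 siTP63. None of them was called up, except 1 in KYSE180 siTP63 under upper-quartile rescaling. Over all genes, 15.8%, 18.1%, 25.7% and 20.6% were called down in these comparisons. TP63 is 1 of the 8 markers and the siRNA target in both siTP63 comparisons, so its fall there was set by the treatment. It is part of these counts and of the sums below. In KYSE150 BRDT-OE 2 of 7 tested were up, neither of them under upper-quartile rescaling and 1 without empty-vector replicate 2 or BRDT-OE replicate 2, and 1 down, and in KYSE150 siTP63 limma and edgeR called 0 of 7 and DESeq2 3 down, with 4 at an unadjusted p under 0.05, while limma called 2 or 3 down whichever library was left out. Summed over the list, TE6 siCont had 7541 to 7783 RPM, TE6 siBRDT 4301 to 4694 and TE6 siTP63 1620 to 1757. KYSE180 went from 8791 to 9365 in siCont to 5364 to 5507 in siBRDT, and in the other experiment from 8184 to 8491 to 5285 to 5291 in siTP63. The endothelial list summed to 1.36 to 2.09 in KYSE180 siCont and 11.3 to 12.1 in siTP63, with 1 gene called up, and the leukocyte list, mostly CD68, went from 35.5 to 36.9 in TE6 siCont to 6.46 to 9.23 in TE6 siTP63. The part of these marker changes in the members' values was not tested.

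Across all 26 libraries, the members' patterns were compared as Pearson's r of log2(normalised count + 1) minus the control mean of the same table. The points share tables and control libraries, so r is given only as a description. STAT2 and IRF9 had r = 0.921, IRF9 and IRF1 0.935, STAT2 and IRF1 0.789, and USP18 had 0.791 with STAT2, 0.778 with IRF9 and 0.742 with IRF1. TYK2 had r between -0.270 and 0.0690 with the other members compared, and SOCS1 between -0.129 and 0.0690. The nearest genes were sought among 9516 that had a mean normalised count of at least 50 in every table.

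The genes nearest to STAT2 were HELZ2 (0.966), PARP9 (0.963) and DTX3L (0.934), and those nearest to IRF9 were JDP2 (0.964), PARP9 (0.961) and DTX3L (0.9498). PARP9, one of the effectors listed above, and DTX3L encode proteins that bind each other and are divergently arranged neighbours in the genome. Nearest to IRF1 were P4HTM (0.9501), APOL6 (0.948) and DNASE2 (0.947), and nearest to USP18 were PARP6 (0.920), BBS1 (0.918) and ZNF513 (0.880). TYK2 was nearest to PLCB3 (0.909), SCARA3 (0.894) and DAB2IP (0.877). SOCS1 had no gene above RNF145 (0.766), followed by GOSR1 (0.763) and PCNXL3 (0.762). IRF7, IFNB1 and IFNL1 were not compared, because their levels were too low outside TE6.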

How the data were processed

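Per the submitters' processing notes, the authors aligned reads with STAR 2.6.0 to hg38, counted genes with HTSeq 0.11.2 and, with DESeq2 1.24.0, divided the counts by size factors, so that the deposited signal is a normalised count per gene in 5 separately normalised tables. It gave back whole reads for 100% of values (tolerance 0.1). The annotation and strand used for counting are not given in the sources used here. Libraries were made with the TruSeq RNA kit V2.

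Groups came from the sample labels. Within each table, limma 3.58.1 (lmFit, eBayes with a mean trend, in R 4.3.3) was fitted to log2(value + 1) of all genes with a mean of at least 10, with Benjamini-Hochberg adjustment. Calls needed an adjusted p under 0.05 and, except for differences between responses, a log2 change of 0.5 or more. Fold changes on this scale understate those of low genes. Alternatives were edgeR 4.0.16 (quasi-likelihood) and DESeq2 1.42.0 on the recovered reads, a pseudocount of 0.1, no filter, upper-quartile rescaling, a replicate block and leaving out each library. Where that left 1 library in a group, it was assumed to vary like the others. Between lines, members were compared where they passed the filter in both, a limit chosen, like the alternatives for the lists, after the data were seen. The fits were tested on simulated counts.

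The members and lists were chosen with earlier results of these data known. Named from each list were the 2 called genes with the largest change in each comparison, and the 3 nearest genes by r; IFNAR2 and IFNLR1 were named after their values were seen. Some listed genes are not reported here.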

Additional observations from a re-analysis of the deposited data

Results flagged for a closer look

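Members whose response to the same depletion differed between lines are given here, each as a difference of log2 fold changes from limma in 1 fit over both tables. After siBRDT, 3 of the 6 members compared differed between TE6 and KYSE180, where 37.2% of all genes tested did. TE6 exceeded KYSE180 by 0.82 for STAT2, 1.504 for IRF9 and 0.79 for IRF1. The last of these rests on the TE6 replicates: without siCont replicate 2 its adjusted p was 0.0874 and without siBRDT replicate 2 it was 0.0664. After siTP63, TE6 minus KYSE180 was -0.80 for STAT2 and -0.91 for IRF9, and DESeq2 gave the latter an adjusted p of 0.0601. Those were 2 of the 6 members compared, against 55.5% of all genes tested. Leaving out 1 library gave 1 to 3, and 6 members are too few to set apart from that share. In KYSE180 against KYSE150, 1 of 6 differed, against 2.05%. KYSE180 minus KYSE150 was 1.36 for STAT2, at an adjusted p of 0.0443 that rose past the threshold in 7 of 8 fits leaving out a library.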

How the results depend on the processing

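Of 935 refits of member fold changes, 849 kept their direction and side of the threshold, 21 lost a call, 35 gained one and 30 changed sign. The cause was not tested. Among member counts, KYSE180 siBRDT went from 0 to 5 with no fold limit. KYSE150 siTP63 went from 0 to 2 with DESeq2 and to 3 with crossed pairing of siCont and siTP63 numbers (3400 genes in all), a setting chosen after the data were seen. For siTP63, TE6 against KYSE180 went from 2 to 1 with DESeq2, and TE6 against KYSE150 from 0 to 1 with DESeq2. KYSE180 against KYSE150 went from 1 to 0 with no filter or the replicate block and to 2 with upper-quartile rescaling, edgeR or DESeq2. TE6 siBRDT against siTP63 went from 1 to 2 with upper-quartile rescaling. Leaving out 1 library gave member counts of 0 to 1 for KYSE180 siBRDT, 4 to 4 for TE6 siBRDT and for KYSE180 siTP63, 4 to 5 for TE6 siTP63, 0 to 1 for KYSE150 siTP63 and 2 to 4 for BRDT-OE. The line contrasts gave 2 to 4 for siBRDT, and for siTP63 1 to 3 (TE6 and KYSE180), 0 to 1 (TE6 and KYSE150) and 0 to 2 (KYSE180 and KYSE150). TE6 siBRDT against siTP63 gave 0 to 4.

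Sign changes were in members not called in the comparison. With upper-quartile rescaling, TYK2 in KYSE180 siTP63 was at 0.0592, SOCS1 there at 0.0269, TYK2 in TE6 siTP63 at 0.0345 (0.00540 with DESeq2) and the TYK2 difference TE6 minus KYSE180 at -0.00834. The USP18 siBRDT difference was 0.0206 with edgeR and 0.0410 with DESeq2. Leaving out 1 library, TE6 siBRDT ranged from -0.38 to 0.0809 for TYK2, -0.19 to 0.48 for USP18 and -0.17 to 0.38 for SOCS1. SOCS1 in KYSE180 siTP63 ranged from -0.34 to 0.00645 and TYK2 in TE6 siTP63 from -0.0676 to 0.0516. Differences ranged from -0.37 to 0.30 for USP18 after siBRDT, and for siTP63 from -0.21 to 0.0606 (IRF1) and -0.50 to 0.0254 (USP18) between TE6 and KYSE180, and for IRF1 from -0.16 to 0.0708 between TE6 and KYSE150 and -0.11 to 0.17 between KYSE180 and KYSE150. Those of TE6 siBRDT minus siTP63 ranged from -0.0550 to 0.23 (IRF7), -0.32 to 0.16 (IRF1), -0.37 to 0.0889 (TYK2) and -0.53 to 0.0921 (SOCS1).

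The same replicate numbers did not pair samples: same-numbered deviations correlated at -0.703 in KYSE150 siTP63 and between -0.0948 and 0.178 elsewhere. With the replicate block, KYSE150 BRDT-OE had 3 members called (SOCS1 in addition), and KYSE150 siTP63 had 137 genes called instead of 0. The gene count of KYSE150 siTP63 was 45 with no filter, 462 with DESeq2 and 242 to 307 with a library left out. TE6 siBRDT had 2993 genes without siCont replicate 2, and BRDT-OE had 6521 with no fold limit. TE6 against KYSE150 (318) had 194, 0 and 885, and KYSE180 against KYSE150 (280) had 36, 0 and 1165, with no filter, the block and DESeq2. Upper-quartile rescaling turned the split of KYSE180 siTP63 from 3292 up and 3577 down to 4524 and 2631, and that of BRDT-OE from 1343 and 2043 to 889 and 2529. At 8 and 56 reads in all, IFNB1 and IFNL1 could not be tested at this depth with the filter.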
